A study of Mus musculus with 12 samples.

Results

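The kinases of the DNA damage checkpoint and the p53 family were followed in the fetal mouse ovary as 8 genes, Atm, Atr, Chek1, Chek2, Trp53, Trp63, Trp73 and Mdm2. They were taken by gene name from the deposited count table, where each name matched 1 of 54532 Ensembl genes, and all 12 libraries were used. ATM and ATR sit at the top of the pathway and are recruited to broken or single-stranded DNA, where they phosphorylate the transducer kinases CHK2 (Chek2) and CHK1 (Chek1). The transducers halt the cell cycle and activate the p53 family of transcription factors, and MDM2, itself encoded by a p53 target gene, ubiquitinates p53 and keeps it low. Oocytes of the fetal ovary are in meiotic prophase and make and repair DNA breaks as part of recombination, and p63, the product of Trp63, is known as the family member that later kills oocytes with unrepaired damage.

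All embryos carried the Tg(Pou5f1-EGFP)2Mnn transgene, in which regulatory sequence of Pou5f1 (OCT4) drives GFP in germ cells, and ovaries were collected at E15.5. Dams were injected on 4 days, from E12.5 to E15.5, with saline vehicle or with dexamethasone (dex), a synthetic ligand of the glucocorticoid receptor, of which they received 10 µg for each g they weighed. Flow cytometry separated the cells with GFP (germ cells) from those without it (somatic cells, a mixture of every other ovarian cell type), which gave 4 groups of 3 libraries: germ cells after saline, germ cells after dex, somatic cells after saline and somatic cells after dex. Each library pooled ovaries of several litters, so that p-values measure the spread between such pools.

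Depth was even, from 14658503 to 17616664 counts in germ cells and from 15161804 to 18245507 in somatic cells, so that 3 counts, taken as the floor, correspond to 0.169 to 0.196 CPM (counts scaled to library size). Of 14 germ cell markers, 13 were higher in germ cells in saline, and the exception, Dnd1, had only 1.97 ± 0.411 CPM (SD, n = 3) there. All 11 pregranulosa markers and all 10 stromal markers were lower in germ cells. Germ cell libraries held 4.20% to 6.34% of the somatic level of pregranulosa markers after saline (median over the 11 genes in each library) and 3.35% to 12.9% after dex, against 0.408% to 0.921% for stromal markers over both treatments. Macrophage markers stood at 4.07% to 6.80% after saline and 7.35% to 15.8% after dex, and endothelial markers at 1.80% to 4.50% over both. These are shares of the somatic level after the same treatment, and that of macrophage markers fell after dex. Their summed level in germ cell libraries was 33.9 to 44.3 CPM after saline and 37.5 to 48.8 CPM after dex. Somatic libraries held 0.122% to 0.518% of the germ cell level of germ cell markers. Of 7 known targets of the glucocorticoid receptor, 6 rose in somatic cells after dex (Fkbp5, Per1, Tsc22d3, Zbtb16, Klf9 and Sgk1, but not Dusp1). In germ cell libraries 2 rose, Per1 and Zbtb16. Over the 7 targets, germ cell libraries held 34.6% to 52.2% of the somatic level after saline and 6.4% to 7.76% after dex (median in each library). The summed somatic level of the targets was 494 to 533 CPM after saline and 1035 to 1233 CPM after dex. In germ cell libraries it was 470 to 534 CPM after saline and 543 to 581 CPM after dex. Pregranulosa markers stood at 3.35% to 12.9% in the dex germ cell libraries. The part of carried-over somatic RNA in the rises of Per1 and Zbtb16 was not tested.

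The reference sequence around the start sites of 3 of the genes is printed because these genes set the populations furthest apart in saline, Atr and Atm toward germ cells and Trp53 toward somatic cells. Each is a RefSeq window of 300 bases on GRCm38.p6, read 5′ to 3′ on the strand of the gene: chr9:95857347-95857646 (plus strand) for Atr, chr9:53536622-53536921 (minus strand) for Atm and chr11:69580109-69580408 (plus strand) for Trp53. Capitals mark a GC box (GGGCGG, or CCGCCC on the other strand) or a CCAAT box (CCAAT, or ATTGG).
Atr: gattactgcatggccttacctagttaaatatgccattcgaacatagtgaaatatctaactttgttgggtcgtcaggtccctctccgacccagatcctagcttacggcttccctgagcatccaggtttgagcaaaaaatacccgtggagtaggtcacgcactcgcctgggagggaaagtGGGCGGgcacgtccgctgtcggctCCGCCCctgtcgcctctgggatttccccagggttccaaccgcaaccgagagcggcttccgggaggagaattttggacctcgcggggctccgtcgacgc
Atm: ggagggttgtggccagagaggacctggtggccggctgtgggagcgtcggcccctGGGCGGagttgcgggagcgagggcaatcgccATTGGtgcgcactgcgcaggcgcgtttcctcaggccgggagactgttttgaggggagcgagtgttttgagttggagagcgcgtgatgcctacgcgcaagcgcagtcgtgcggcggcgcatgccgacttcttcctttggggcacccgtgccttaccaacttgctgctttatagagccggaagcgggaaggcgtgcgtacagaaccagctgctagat
Trp53: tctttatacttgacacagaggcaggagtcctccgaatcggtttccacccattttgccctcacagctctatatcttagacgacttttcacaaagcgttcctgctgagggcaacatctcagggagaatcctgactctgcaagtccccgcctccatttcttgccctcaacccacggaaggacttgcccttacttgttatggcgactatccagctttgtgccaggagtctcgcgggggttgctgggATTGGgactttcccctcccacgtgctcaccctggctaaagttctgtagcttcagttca

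Windows were found for 7 of the 8 genes, 8 windows in all because Trp73 has 2, and Trp63 was not among them. The Atr window held 2 GC boxes and no CCAAT box, the Atm window 1 of each, and the Trp53 window 1 CCAAT box and no GC box. A GC box was present in 35.7% and a CCAAT box in 37.4% of all 32851 windows of this length. The hexamer CACGTG (an E box, the same on both strands) was found in the Trp53 window alone among the 8, against 7.15% of all windows. The glucocorticoid receptor half-site TGTTCT (or AGAACA) was found in none of the 8, against 19.0% of all windows, and says only that these letters are not in this stretch. CpG dinucleotides were at 0.494 of the number expected from base composition in the Trp53 window, 0.893 in that of Atr and 0.957 in that of Atm, where the median window had 0.384.

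In saline, all 8 genes differed between germ and somatic cells, 7 of them higher in germ cells and Trp53 lower (edgeR quasi-likelihood test, adjusted p of at most 0.05). Among the 7, Trp63 and Trp73 passed the low-count filter through germ cells alone, so their calls are no support for the group. The background is high: 86.1% of 17941 genes tested passed this test, 43.1% of them higher and 42.9% lower in germ cells. The differences in size ranged from 1.52-fold for Chek2 to 36.0-fold for Atr. In bulk libraries of a sorted population, fewer expressing cells and less RNA per cell cannot be told apart.

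Atr, the kinase that answers to single-stranded DNA, stood furthest apart. Its library values were 1733, 1778 and 1771 CPM in saline germ cells, and 51.2, 51.8 and 43.3 CPM in saline somatic cells. The log2 difference was 5.17 ± 0.09 (SE; 95% interval 4.97 to 5.37, adjusted p = 1.97e-15). The 3 germ cell values lay within a narrow band, far from every somatic value. Atm, the kinase that answers to double-strand breaks, had 322, 334 and 299 CPM in saline germ cells against 38.1, 36.1 and 31.1 CPM in saline somatic cells. This was a difference of 3.18 ± 0.09 on the log2 scale (adjusted p = 9.9e-14), or 9.04-fold. Both kinases were thus higher in germ cells, but not equally, as the ratio of Atr to Atm per length shows further on.

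Of the transducer kinases, Chek1 showed the wider contrast. It had 131, 121 and 132 CPM in saline germ cells and 29.9, 28.1 and 25.1 CPM in saline somatic cells, a 4.61-fold difference (log2 2.21 ± 0.08, adjusted p = 2.8e-12). Chek2 had 13.03, 17.36 and 15.03 CPM in saline germ cells and 10.3, 10.1 and 9.27 CPM in saline somatic cells. Its groups did not overlap, but the difference was only 1.52-fold (log2 0.61 ± 0.15, 95% interval 0.28 to 0.93, adjusted p = 0.00177). After dex the Chek2 difference was 1.31-fold (log2 0.39 ± 0.14, adjusted p = 0.023), and this call was lost without the first dex somatic library (log2 0.37, adjusted p = 0.0593) or without the second (log2 0.35, adjusted p = 0.0669).

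The p53 family split. Trp53 had 12.45, 13.52 and 11.55 CPM in saline germ cells against 138, 149 and 141 CPM in saline somatic cells, so that every germ cell library was far below every somatic one. The log2 difference was -3.52 ± 0.09 (95% interval -3.70 to -3.33, adjusted p = 2.43e-14), 11.4-fold lower. The Trp53 level of germ cells was 8.76% of the somatic level in saline and 9.67% after dex, where pregranulosa markers stood at 4.20% to 6.34% and 3.35% to 12.9%, macrophage markers at 4.07% to 6.80% and 7.35% to 15.8%, and stromal markers at no more than 0.921%. Each share is of the somatic level after the same treatment, which fell after dex for macrophage markers. The part of carried-over somatic RNA in the germ cell level of Trp53 was not tested.

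Trp63 and Trp73 went the other way, at low levels. Trp63 had 72, 40 and 65 counts in saline germ cells (4.65, 2.36 and 3.77 CPM) and 11, 7 and 9 counts in saline somatic cells (0.690, 0.452 and 0.546 CPM). Trp73, the remaining family member, had 80, 93 and 70 counts in saline germ cells (5.16, 5.49 and 4.06 CPM) and 6, 10 and 11 in saline somatic cells (0.376, 0.645 and 0.667 CPM). Neither gene overlapped between the populations. The log2 differences were 2.65 ± 0.38 for Trp63 and 3.10 ± 0.33 for Trp73, but both genes passed the low-count filter through the germ cell libraries alone, so these 2 calls are no support for the group as a whole. Their somatic levels, at 15.7% (Trp63) and 11.5% (Trp73) of the germ cell levels, were above the 0.149% to 0.484% at which germ cell markers were found in saline somatic libraries. These somatic levels rest on few counts, and the part of carried-over germ cell RNA in them was not tested. Counts per gene do not separate the p63 isoform with a transactivation domain, which is the one of oocytes, from the form without it.

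Mdm2, the ubiquitin ligase of p53, was high where Trp53 was low. It had 300, 279 and 286 CPM in saline germ cells and 81.8, 81.3 and 65.7 CPM in saline somatic cells, 3.77-fold higher in germ cells (log2 1.92 ± 0.09, adjusted p = 2.54e-11). Among the libraries that received dex, the same 7 genes were higher and Trp53 lower in germ cells, where 84.3% of 18171 genes passed the test (42.0% higher, 42.2% lower). The log2 differences after dex were 5.30 for Atr, 3.09 for Atm, 2.11 for Chek1, 1.78 for Mdm2, 2.78 for Trp63, 4.77 for Trp73 and -3.40 for Trp53. The value of Trp73 rests on 6, 1 and 2 somatic counts and was 4.35 to 5.74 with 1 library left out, highest without the first dex somatic library, and Trp63 and Trp73 again passed the filter through germ cells alone.

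**Figure D1:**
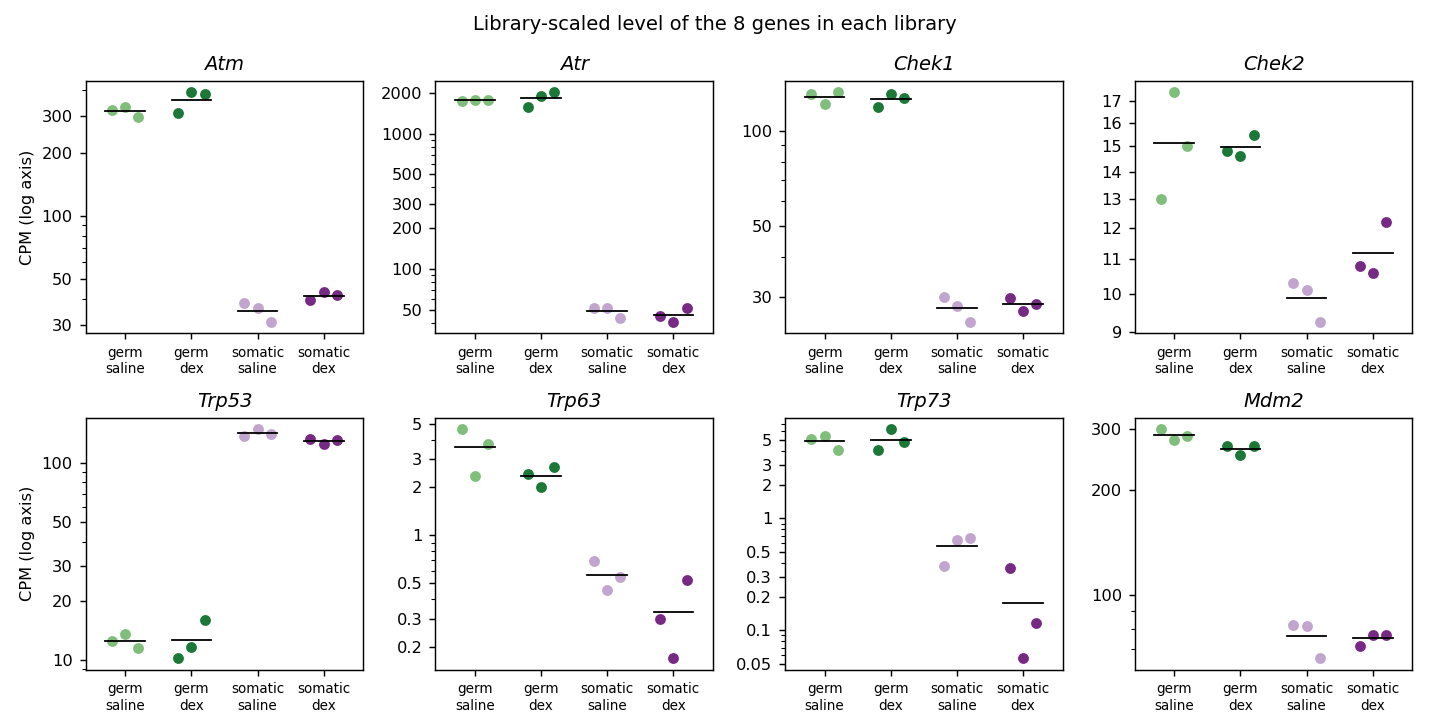
Library-scaled level (CPM, log axis, a separate range for each gene) of the 8 genes in the 4 groups. Points are the 3 libraries of a group, in replicate order, and bars are group means. Trp53 is the only gene with its germ cell points below its somatic points, and dex points lie close to saline points except for the low counts of Trp63 and Trp73.

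Levels of different genes were compared per length, as the FPKM values that the authors deposited (fragments relative to exon length and depth). In saline germ cells the order was Atr (74.6 ± 0.613 FPKM, SD, n = 3), Mdm2 (56.8 ± 2.54), Atm (30.8 ± 1.57), Chek1 (27.7 ± 1.64), Chek2 (5.05 ± 0.674), Trp53 (3.09 ± 0.223), Trp73 (0.887 ± 0.132) and Trp63 (0.430 ± 0.141), and the libraries of no 2 neighbours overlapped. In saline somatic cells Trp53 led (34.3 ± 1.14 FPKM), followed by Mdm2 (14.6 ± 1.74), Chek1 (5.81 ± 0.519), Atm (3.30 ± 0.343), Chek2 (3.21 ± 0.186), Atr (2.00 ± 0.194), Trp73 (0.0987 ± 0.0281) and Trp63 (0.0651 ± 0.0142). There Atm overlapped with Chek2, and Trp73 with Trp63. Atr thus went from the top of the order in germ cells to the sixth place in somatic cells, and Trp53 from the sixth place to the top. Among the 30079 genes with an FPKM above 0 in saline germ cells, Atr stood at percentile 98.5 and Trp53 at 68.9, against 59.0 and 95.7 among 28144 such genes in saline somatic cells.

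The order depends in part on the exon length used. The deposited length of Atr was 23629 bases, 2.92 times its longest protein-coding transcript of 8102 bases in the GENCODE vM21 annotation, and the length of Trp53 was 2.17 times its longest coding transcript. With coding transcript lengths, an alternative chosen after seeing the data, Atr rose to 218 FPKM in saline germ cells and 5.84 FPKM in saline somatic cells. Atr then remained first in germ cells and moved from the sixth to the fourth place in somatic cells. Atm and Chek1 changed places in saline germ cells (32.4 and 33.8 FPKM), as did Chek2 and Trp53 (6.65 and 6.70 FPKM). On either length, Mdm2 was second in each population.

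Ratios within a library, in which any scaling of that library cancels but the exon length does not, also differed between the populations. Trp53 made up 67.4% to 72.4% of the summed FPKM of the 3 family members in saline germ cells and 67.6% to 76.7% in dex germ cells, but 99.5% to 99.6% and 99.7% to 99.9% in the somatic libraries. The ratio of Mdm2 to Trp53 was 16.4 to 19.7 in saline germ cells and 0.371 to 0.470 in saline somatic cells. Atr exceeded Atm by 2.33 to 2.59 times in saline germ cells, whereas in saline somatic cells the ratio was 0.587 to 0.628. That somatic direction turned with coding transcript lengths, where Atr exceeded Atm by 1.63 to 1.74 times in saline somatic cells and by 6.45 to 7.18 times in saline germ cells. Chek1 exceeded Chek2 in both populations, by 4.50 to 6.52 times in saline germ cells and by 1.75 to 1.87 times in saline somatic cells. None of these 4 measures overlapped between saline germ and saline somatic libraries on either length.

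**Figure D2:**
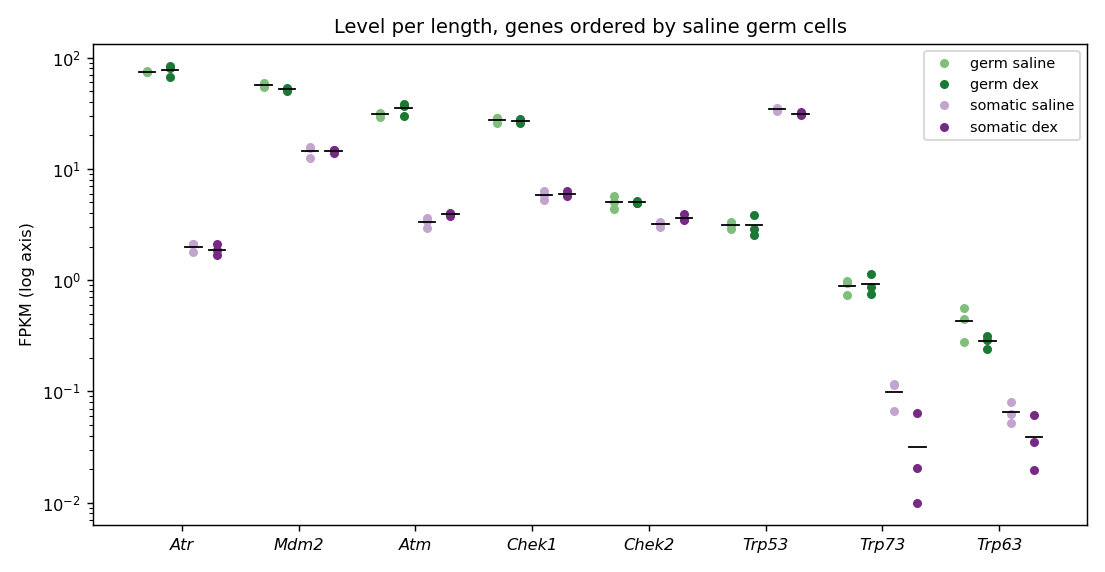
Level per length (FPKM, log axis) of the 8 genes, ordered from left to right by their mean in saline germ cells. Points are libraries, bars are means of 3, and the colours are the 4 groups. Atr stands at 74.6 FPKM in saline germ cells and 2.00 in saline somatic cells, and Trp53 at 3.09 and 34.3.

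After dex, none of the 8 genes was called in germ cells and none of the 6 that could be tested was called in somatic cells. In germ cells 0.208% of 16857 genes tested were called, and in somatic cells 8.18% of 16556. At an unadjusted p under 0.05 stood 1 of the 8 in germ cells (Atm) and 2 of the 6 in somatic cells (Atm and Trp53), where 11.6% and 20.9% of all genes tested did. DESeq2 called none in either, but it gave no adjusted p for Trp63 and Trp73 in either. Libraries of dex and saline did not overlap for 1 of 8 genes in germ cells (Mdm2) and 3 of the 6 tested in somatic cells (Atm, Chek2 and Trp53), where 16.9% and 25.6% of all tested genes did not overlap.

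Atm had the same direction in both populations. It had 310, 391 and 383 CPM in dex germ cells and 322, 334 and 299 CPM after saline, a log2 change of 0.20 ± 0.08 (95% interval 0.02 to 0.38, adjusted p = 0.372). In somatic cells it had 39.4, 42.9 and 41.9 CPM after dex and 38.1, 36.1 and 31.1 CPM after saline (log2 0.25 ± 0.09, 95% interval 0.04 to 0.45, adjusted p = 0.147). The second and the third dex germ cell libraries were above all saline ones and the first was not, while in somatic cells every dex value was above every saline value. Neither change passed the correction. Atr had 1584, 1910 and 2012 CPM in dex germ cells and 44.9, 40.8 and 51.0 CPM in dex somatic cells, with log2 changes of 0.08 (95% interval -0.08 to 0.24) and -0.09 (-0.30 to 0.12). The lowest and the highest germ cell values of Atr were both in the dex group.

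For the transducers, the intervals were narrow around no change for Chek1 and wider for Chek2. Chek1 had 119, 131 and 127 CPM in dex germ cells and 29.8, 27.1 and 28.6 CPM in dex somatic cells, with 95% intervals of -0.15 to 0.13 and -0.17 to 0.27 on the log2 scale. Chek2 had 14.78, 14.64 and 15.52 CPM in dex germ cells (95% interval -0.30 to 0.31). In dex somatic cells it had 10.8, 10.6 and 12.2 CPM, all above the saline values, with a log2 change of 0.18 ± 0.14 (95% interval -0.13 to 0.49, adjusted p = 0.531).

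Within the p53 family, Trp53 had 10.2, 11.6 and 15.9 CPM in dex germ cells, a spread around the saline values (log2 0.02 ± 0.17, adjusted p = 0.973). The highest value, in the third dex library, and the next, in the second, came from the libraries with 9.34% and 12.9% of the somatic pregranulosa marker level, where the first had 3.35%. The part of those markers in the Trp53 level was not tested. In somatic cells Trp53 had 133, 126 and 131 CPM after dex, all below the saline values (log2 -0.13 ± 0.06, adjusted p = 0.238). Trp63 had 37, 31 and 45 counts in dex germ cells (2.42, 2.01 and 2.69 CPM), and its log2 change of -0.58 ± 0.29 had a 95% interval of -1.21 to 0.06 (adjusted p = 0.486). One saline library, the second, lay among the dex values, and the other two were higher. As a ratio of dex to saline the interval runs from 0.431 to 1.04.

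Trp73 had 63, 97 and 81 counts in dex germ cells (4.12, 6.28 and 4.83 CPM), a log2 change of 0.07 ± 0.22 (adjusted p = 0.935). In dex somatic cells it had 6, 1 and 2 counts and Trp63 had 5, 3 and 9, and both genes fell under the filter in that comparison. Without the filter the log2 changes were -1.64 (95% interval -3.41 to 0.13, adjusted p = 0.42) for Trp73 and -0.75 (95% interval -2.28 to 0.77, adjusted p = 0.713) for Trp63. The dex values of Trp73 were all below the saline values, by a margin as small as 0.358 against 0.376 CPM, and 2 of them were under the floor of 3 counts. Mdm2 had 268, 252 and 269 CPM in dex germ cells, each below all saline values (log2 -0.11 ± 0.06, 95% interval -0.25 to 0.02, adjusted p = 0.529). In dex somatic cells it had 71.5, 76.7 and 76.8 CPM, within the saline range (95% interval -0.20 to 0.17).

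The difference between the dex responses of the populations was also tested directly, in all 12 libraries. None of the 8 genes was called, against 1.62% of 19390 genes. Trp73 had the largest value, 1.69 ± 0.64 on the log2 scale (germ cell response minus somatic response, 95% interval 0.34 to 3.05, adjusted p = 0.215), and it rests on the few somatic counts just given. It was the only one of the 8 with an unadjusted p under 0.05, against 15.4% of all genes tested. The 95% intervals of Atm (-0.32 to 0.21), Atr (-0.13 to 0.44), Chek1 (-0.30 to 0.17), Mdm2 (-0.35 to 0.13) and Trp53 (-0.18 to 0.47) bound any difference in response, while those of Chek2 (-0.61 to 0.23) and Trp63 (-1.08 to 1.40) leave more room.

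**Figure D3:**
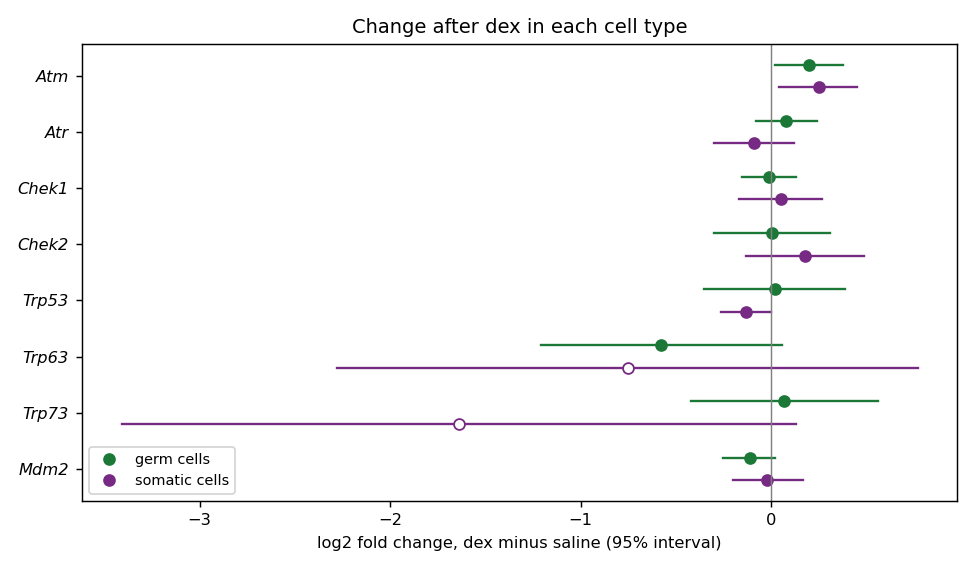
Log2 fold change after dex (dex minus saline) of the 8 genes in germ cells and in somatic cells, with 95% intervals from the edgeR fit of 3 against 3 libraries. Open points are Trp63 and Trp73 in somatic cells, which fell under the low-count filter and are drawn from the fit without it. The intervals of Atm alone exclude 0 in both populations, and no gene passed the correction over all genes.

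The rest of the pathway was read from 5 lists of genes. Among 25 sensors of DNA breaks, mediators and checkpoint cofactors, 20 were higher in saline germ cells, 4 were lower and 1 was not called, and the median log2 difference was 1.16 where that of all genes tested was 0.0047. The share called in the 5 lists (24 of 25, 10 of 12, 18 of 19, 33 of 40 and 7 of 8) lay on both sides of the 86.1% of all genes tested, of which 43.1% were higher and 42.9% lower. The most raised were Hus1b (log2 5.18, with a somatic mean of 0.166 CPM, under the floor) and Rad9b (3.28), germline-biased paralogs of subunits of the 9-1-1 clamp that is loaded at damaged DNA, and Topbp1 (3.10), the activator of ATR, with 1043 ± 14.1 CPM in germ cells against 121 ± 12.2 in somatic cells. The most lowered was Rad9a, the paralog used in most tissues (log2 -2.48, 4.53 ± 0.0473 against 25.2 ± 4.09 CPM), followed by the single-strand binding subunit Rpa1 (-0.46) and the break mediator Trp53bp1 (-0.45). Rad9b and Rad9a thus stood in opposite directions in the same libraries. Hus1b passed the low-count filter through germ cells alone, so its call is no support for the list.

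Of 12 cell cycle effectors of the checkpoint kinases, 3 were higher in saline germ cells and 7 lower (median log2 -0.41). The inhibitory kinases Wee1 (log2 0.78) and Pkmyt1 (0.46) were higher, as was Cdk2 (0.52). The mitotic kinase Aurkb (-5.50) and the phosphatases Cdc25b (-3.67) and Cdc25c (-2.33), which release CDK1 from that inhibition, were lower. Cdc25b had 3.81 ± 0.900 CPM in germ cells and 48.8 ± 3.94 in somatic cells. Of 19 p53 modifiers and partners, 11 were higher and 7 lower (median 0.23). Cdkn2a, which encodes the MDM2 inhibitor ARF along with p16, had 11.6 ± 1.90 CPM in germ cells and 0.123 ± 0.121 in somatic cells, a mean under the floor. The deacetylase Sirt1 (log2 2.21) and the p53 partner Ppp1r13b (182 ± 7.60 against 64.1 ± 2.27 CPM) were also higher. The repressors Bcl6 (-4.73, with 0.474 ± 0.3 CPM in germ cells) and Twist1 (-3.84) and the partner Trp53bp2 (-0.70) were lower. Cdkn2a passed the low-count filter through germ cells alone and Bcl6 through somatic cells alone. Their calls are thus no support for the list.

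Of 40 p53 target genes, 11 were higher in saline germ cells, 22 lower and 7 not called, with a median log2 difference of -0.77. Lowest were Psrc1 (-5.08), the antiproliferative Btg2 (-5.06, 8.93 ± 2.36 against 298 ± 41.2 CPM) and the death receptor gene Fas (-4.54). Fas had a germ cell mean of 0.0860 CPM, under the floor. It passed the low-count filter through somatic cells alone, so its call is no support for the list. The ubiquitin ligase subunit Fbxw7 (3.32), the BH3-only gene Pmaip1 (2.65) and the repair factor Ddb2 (2.22) were highest. The 8 genes that act with or after p63 in damaged oocytes, 4 of them (Bax, Bbc3, Eda2r and Pmaip1) also on the target list, gave 1 higher, 6 lower and 1 not called (median -0.75). The 1 was Pmaip1 (NOXA), with 27.8 ± 1.34 CPM in germ cells and 4.43 ± 0.248 in somatic cells. Bbc3 (PUMA, log2 -0.96), the other BH3-only gene known in oocyte death, was lower, as were Eda2r (-0.93) and the pore-forming Bak1 (-5.04, 1.12 ± 0.651 against 37.7 ± 1.92 CPM). The 2 BH3-only genes thus differed in direction. Among the dex libraries 20 sensors and mediators were higher in germ cells and 2 lower, and 3 and 7 cell cycle effectors. For p53 modifiers the counts were 8 and 7, and for p53 target genes 14 and 23. For the genes that act with or after p63 they were 1 and 6.

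**Figure D4:**
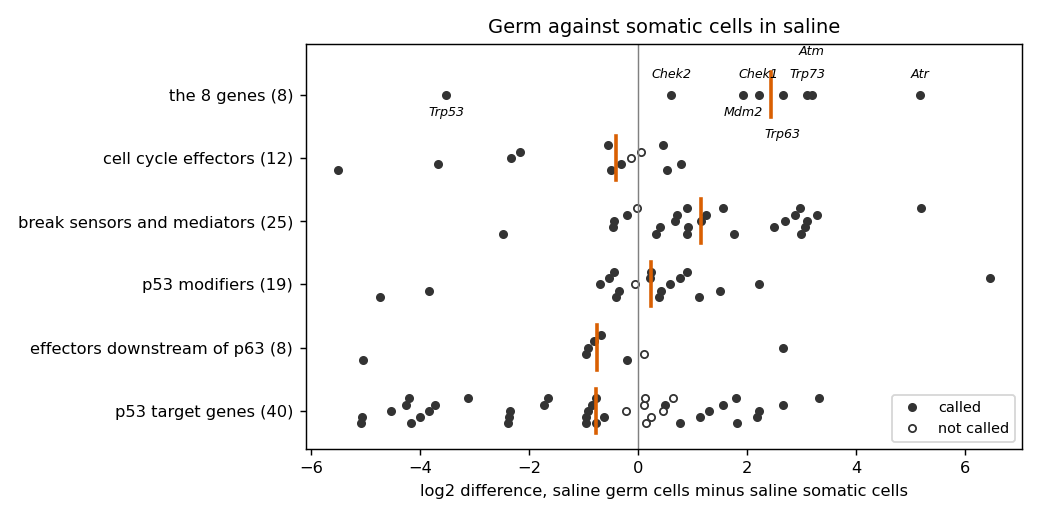
Log2 difference between saline germ cells and saline somatic cells for the 8 genes and for the genes of the 5 lists (number of genes in parentheses). The row named effectors downstream of p63 holds the genes that act with or after p63. Each point is a gene, filled where called and open where not, spread vertically only to separate points, and the orange bar is the median of the row. Sensors and mediators lie mostly to the right of 0, with a median of 1.16, and p53 target genes mostly to the left, with a median of -0.77.

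After dex, no gene of these 5 lists was called in germ cells, and 13 of the 96 tested stood at an unadjusted p under 0.05, against 11.6% of all genes tested. Ddit4, a target of p53 and of the glucocorticoid receptor that inhibits mTORC1, came closest (15.3 ± 1.90 CPM after saline and 26.1 ± 4.17 after dex, log2 0.79 ± 0.14, adjusted p = 0.0503), and its call turned with the setting. With no library left out, Ddit4 was called under every alternative. Adjusted p was 0.0475 under RLE scaling, 0.0002 by DESeq2 and 7.22e-06 without the low-count filter. It was 0.0244 with a replicate block and 0.0284 in 1 fit of all 4 groups. With 1 library left out, Ddit4 was called without the first dex library (adjusted p = 0.0111). It was not called when any of the other 5 was left out (adjusted p between 0.0624 and 0.273). In somatic cells 6 of the 40 p53 target genes were called, 5 higher and 1 lower, against 4.81% of all tested genes higher and 3.36% lower. Ddit4 (log2 0.57 ± 0.11, adjusted p = 0.00634) and the stress-induced Sesn1 (0.37 ± 0.07, adjusted p = 0.0042) rose and were called under every alternative run. Trp53inp1 (0.36), Ccng1 (0.29) and Ephx1 (0.56) rose and Plk3 fell (-0.49), but these 4 calls were weak. Those of Ephx1 and Plk3 were lost whichever library was left out and in 1 fit of all 4 groups, that of Ephx1 also with a replicate block (adjusted p = 0.0513) and by DESeq2 (adjusted p = 0.0633). Ccng1 was lost when any library other than the third dex one was left out, and Trp53inp1 without the second dex, the second saline or the third saline library. The count of 6 was 2 without the second dex library or without the second or the third saline library, 3 without the first dex or the first saline library, and 8 without the third dex library.

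Among the p53 modifiers in somatic cells after dex, the repressor Bcl6 rose 1.99-fold, to 24.8 ± 1.12 CPM (log2 0.99 ± 0.12, adjusted p = 0.000134), under every alternative run. The ribosomal protein genes Rpl5 (0.24) and Rpl23 (0.27), whose products bind MDM2, rose and the kinase gene Hipk2 fell (-0.39). These were 4 of 18 tested, against 8.18% of all 16556 genes tested. The 4 became 1 without the second dex or the second saline library and 2 without the first saline library. Both ribosomal protein genes have pseudogene copies, so their counts are uncertain. Of the sensors and mediators 1 of 24 tested fell, Trp53bp1 (from 153 ± 7.64 to 125 ± 1.07 CPM, log2 -0.29, adjusted p = 0.00857), and this call was lost without the first saline library (adjusted p = 0.0513) or the second (adjusted p = 0.0562). No cell cycle effector and no gene of the list that acts with or after p63 was called. Over the 5 lists, 27 of the 98 genes tested in somatic cells stood at an unadjusted p under 0.05, against 20.9% of all genes tested. Markers of cell types moved in the same libraries: 6 of 11 macrophage markers fell after dex, from a summed level of 198 to 258 CPM to one of 57.0 to 144 CPM. Of 8 endothelial markers 1 rose and 2 fell. Of 11 pregranulosa markers 1 fell, of 10 stromal markers 1 rose, and of 10 germ cell markers tested 1 rose. Erythroid markers summed to 7394 to 12438 CPM after saline and 3281 to 16504 CPM after dex, with none called. Their part in these somatic changes was not tested. In the test of the difference between the populations, 0 genes of the 5 lists were called by edgeR with TMM scaling and the filter, and 19 of 100 stood at an unadjusted p under 0.05, against 15.4% of all genes tested. Other settings called a few: DESeq2 2 sensors or mediators, 1 modifier and 2 target genes, edgeR without the filter 2 target genes and with a replicate block 1, and leaving out 1 library up to 2 target genes and 1 sensor or mediator (both without the third dex germ cell library).

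The genes most like each member were taken as the 3 with the smallest root mean square difference in log2 CPM, each centred on its own mean over the 12 libraries, among 19390 genes. All such patterns hold the contrast between the populations. For Atr these were Tex15, a germline gene needed for meiotic recombination (0.12), Gm11933 (0.16) and Jade3 (0.17). For Atm they were Phf8 (0.10), Trappc8 and Adarb1 (0.12 each), and for Chek1 Rbm27 (0.04), Zfp654 (0.05) and Usp37 (0.06). Chek2 was closest to Mrpl13, Slc25a17 and Rpain (0.08 each) and Mdm2 to Lig3, Marf1 and Polr2a (0.07 each). For Trp53 they were Aprt and 2610001J05Rik (0.12 each) and Bcl2l11 (0.13). The low-count Trp63 (Slain1, Piwil4 and Ap5b1, 0.33 each) and Trp73 (Kctd19, 0.36, then 6430531B16Rik and 4933405L10Rik) had less close neighbours. Within the 8, Chek1 and Mdm2 were the closest pair (0.18), and Trp53 and Atr the most distant (4.35).

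All 8 genes had the coordinates of the GENCODE annotation of GRCm38. Atr (chr9:95857597-95951781, plus strand) and Atm (chr9:53439149-53536740, minus strand) lie on the same chromosome as Chek1 (chr9:36708482-36727065, minus strand). Atr shares 726 exonic bases with the antisense gene 1700065D16Rik and 462 with the antisense gene Gm16794, as well as 178 with the small nuclear RNA gene Gm24004 on its own strand, and Trp73 (chr4:154056253-154140208, minus strand) shares 280 with Trp73os. Whether counting used strand is not given in the sources used here, so reads of these partners could not be separated and the values of Atr and Trp73 are uncertain to that extent. The exons of Trp53 (chr11:69580359-69591873, plus strand), Trp63 (chr16:25683763-25892102, plus strand), Chek2 (chr5:110839979-110874145, plus strand), Mdm2 (chr10:117688875-117710758, minus strand), Atm and Chek1 shared no base with another gene.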

How the data were processed

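RNA of 12 libraries was selected for poly-A and sequenced as read pairs. Per the labels, pairs were aligned to mm10 with HISAT2 2.0.5 and counted per gene with featureCounts 1.5.0-p3. The deposited raw counts were used for all tests and for CPM, and the FPKM that the authors deposited, computed from counts, gene length and depth, for levels between genes. Tables with the authors' DESeq2 1.20.0 comparisons (fold changes and p-values) were not used.

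Counts were tested with edgeR 4.0.16 in R 4.3.3 (quasi-likelihood, TMM scaling, filterByExpr, Benjamini-Hochberg over all genes tested, threshold 0.05), dex against saline within each population, germ against somatic cells within each treatment, and the difference of the dex responses in all 12 libraries. The script was tested on simulated data. Replicates differed by more than counting noise, and the floor of 3 counts covers counting error only. Alternatives were RLE scaling, DESeq2 1.42.0, no low-count filter, a replicate block, 1 fit of all 4 groups and leaving out each library. The members and lists were chosen with earlier results of these data known. Named genes were the members, called list genes after dex (up to 6 a list and comparison), the 3 most raised and 3 most lowered called genes of each list with a mean of at least 1 CPM in saline, 7 glucocorticoid receptor targets and the 3 most alike genes. Dnd1, and Ddit4 in germ cells, were named after their values were seen.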

Additional observations from a re-analysis of the deposited data

How the results depend on the processing

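All 8 genes were called between the populations in saline under every alternative run, and after dex under all but the 2 that lost Chek2 (7 of 8). In the main tests of this contrast, Trp63 and Trp73 passed the low-count filter through germ cells alone. None of the 8 was called for dex against saline in either population, or for the difference of the responses, under any alternative. For Trp63 and Trp73, DESeq2 gave no adjusted p after dex in either population and so could not call them there. Signs turned only where values lay near 0. The germ cell dex change of Chek2 (0.0036) was -0.00032 under RLE scaling, -0.01 by DESeq2, -0.0036 without the low-count filter and -0.0039 in 1 fit of all 4 groups. With 1 library left out, germ cell changes ran from -0.17 to 0.13 for Trp53, -0.12 to 0.17 for Trp73, -0.06 to 0.02 for Chek1 and -0.09 to 0.11 for Chek2, and somatic changes from -0.02 to 0.10 for Chek1 and -0.12 to 0.03 for Mdm2. The difference of the responses ran from -0.04 to 0.27 for Trp53, -0.15 to 0.67 for Trp63, -0.13 to 0.01 for Chek1, -0.12 to 0.04 for Atm and 1.28 to 2.67 for Trp73. The germ cell dex change of Atm was 0.14 to 0.28, and the somatic one 0.16 to 0.30. The background moved more: 35 genes were called after dex in germ cells, 154 by DESeq2, 420 without the filter, 64 in 1 fit and 17 to 81 with 1 library left out, and without the filter Cdkn1a, Ddb2 and Aen joined Ddit4 among p53 target genes. In 1 fit of all 4 groups the somatic p53 target genes called were 3 instead of 6 and the modifiers 2 instead of 4. In somatic cells 1354 became 803 in that fit and 754 to 1881 with 1 library left out. For the difference of the responses, 314 became 623 by DESeq2, 727 without the filter and 143 to 384 with 1 library left out. Deviations of same-numbered dex and saline libraries from their group means correlated between -0.02 and 0.10. Those of different number correlated between -0.06 and 0.04. Germ and somatic libraries of the same number and treatment correlated weakly and positively (0.04 to 0.07). Germ and somatic libraries of different number correlated negatively (-0.04 to -0.0039), which follows in part from centring each group of 3 libraries on its mean. Whether a number marks the same pool of ovaries in both populations is not given in the sources used here. The main tests of germ against somatic cells did not use this pairing. With a replicate block 0, 0, 8, 8 and 0 of the genes were called in the 5 comparisons, and Ddit4 was called in germ cells (adjusted p = 0.0244). Trp63 and Trp73 in somatic cells are limited by depth, at 1 to 11 counts a library.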
